A study of Mus musculus with 3 samples.

Results

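The Ms4a genes of the mouse encode small proteins that cross the cell membrane several times, and 7 of them were followed across the leukocytes of infarcted hearts: Ms4a1, Ms4a4c, Ms4a6b, Ms4a6c, Ms4a6d, Ms4a7 and Ms4a8a. They were 7 of the 29298 gene columns of the series and were chosen by their levels across classes and within macrophages in earlier results of these data, so those levels are a description. The same holds for the members' p-values below. Counts of members called are set beside the share of all genes called, and they test no excess over it. Cells held on anti-CD45 beads were profiled one by one with BD Rhapsody whole-transcriptome sequencing, CD45 being a surface protein of leukocytes. The mice were F7fl/fl CX3CR1Cre and F7fl/fl WT, so all of them carried floxed alleles of F7, the gene of coagulation factor VII, and Cre was expressed from Cx3cr1, a gene of monocytes, macrophages and some other leukocytes. Hearts were taken at different times after permanent ligation, the sources used here do not give the ages of the mice, and cells with a deleted allele cannot be told apart from others. The 18 sample tags, each the mark of 1 heart, were read in 3 multiplexed libraries with 7, 5 and 6 tags, and a table of what each tag stands for, to which the labels point, was not used here. The label of library 1 holds d3, which may stand for a day and was not used as one, and those of libraries 2 and 3 hold no such mark. Cells were therefore compared within a tag throughout.

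Members of this family sit beside receptors of leukocytes and adjust their signals. Ms4a1 encodes CD20, the B cell antigen that therapeutic antibodies bind. The Ms4a4 and Ms4a6 groups have several near copies in the mouse and are known from monocytes, macrophages and T cells. Ms4a7 is known from macrophages, and Ms4a8a from alternatively activated and tumour-associated macrophages of the mouse. The infarcted heart holds macrophages that were there before the injury and others that come from blood monocytes, which makes it a tissue where the members can be set side by side.

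Each cell with at least 200 detected genes was put in the first class whose gate it passed. T cells had at least 2 molecules of Cd3e, Cd3d and Cd3g together, and B cells had at least 2 of Cd79a. Neutrophils had at least 1% of their molecules from S100a8 and S100a9 and at least 1 of Csf3r. Macrophages had at least 0.1% from the complement genes C1qa, C1qb and C1qc, dendritic cells at least 1 molecule of Flt3, and monocytes at least 2 of Ly6c2. This gave 15023 macrophages, 2427 monocytes, 1371 dendritic cells, 488 neutrophils, 1225 T cells and 779 B cells, and 4327 cells passed no gate, while 122 of 25762 cells had fewer genes. No gate uses a family member. P-values below come from edgeR's quasi-likelihood test on sums per tag, adjusted over every gene in the fit and called under 0.05. The tag is a block in the fit, so they set a difference within tags against how far it varies from tag to tag. All classes were fitted together and share an estimate of that spread. Levels are in CPM, the gene's molecules scaled to a fixed total of molecules of the class in a tag, for tags with at least 20 cells of the class: 18 tags for macrophages, T cells and B cells, 16 for dendritic cells, 10 for monocytes and 9 for neutrophils. Depth differed between classes, at a median of 20575 molecules per macrophage, 12701 per monocyte and 3997 per neutrophil. Libraries differed too, with 349827525 molecules in library 1, 88942652 in library 2 and 93812439 in library 3. Of the cell labels, 4 were shared by libraries 1 and 2, 3 by libraries 1 and 3, and 0 by libraries 2 and 3.

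Marker sums put each class highest for its own list, and they also showed many macrophage markers in the T and B cell classes. The lists of macrophages and monocytes hold no gate gene. Those of neutrophils, dendritic cells, T cells and B cells hold genes of their own gates. The rank of these classes for their own list was thus partly set by the gates. Summed macrophage markers had a median of 11841 CPM in macrophages, 3468 CPM in monocytes and 1527 CPM in dendritic cells, but 6940 CPM in T cells and 7646 CPM in B cells. The macrophage gate was also passed by 43.8% of the T cells (536 of 1225) and by 50.3% of the B cells (392 of 779), against 7.38% of the neutrophils. These cells were deep: T cells inside the macrophage gate had a median of 21277 molecules, against 9215 outside it. Lymphocytes with macrophage transcripts and macrophages with a few Cd3 or Cd79a molecules cannot be told apart here. Levels in T and B cells are therefore given for all gated cells and, for some members, also inside and outside that gate. The edge of the macrophage gate was not sharp either. The 742 macrophages with 0.1 to 0.15% C1q molecules held 549.6 CPM Ms4a7, and 1113 cells of no or a later gate with 0.05 to 0.1% held 481 CPM.

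The 7 members lie in 1 cluster on chromosome 19. In GENCODE M21 for GRCm38, 19 Ms4a genes run from position 10962293 to 11640851, and 0 pairs of neighbours overlap. Ms4a8a is at chr19:11067471-11081102, Ms4a1 at chr19:11249675-11266241 and Ms4a7 at chr19:11321039-11336146, all on the minus strand. Ms4a4c follows at chr19:11404770-11427246, Ms4a6c at chr19:11469366-11482192 and Ms4a6b at chr19:11516512-11531256, all on the plus strand, and Ms4a6d lies at chr19:11586604-11604849 on the minus strand. Some copies share exact sequence. Of the 50-base words of the annotated transcripts, 8.19% of those of Ms4a4c, 5.85% of Ms4a6c, 3.44% of Ms4a6b and 2.31% of Ms4a6d are found in another family gene too, and 0% of those of Ms4a1, Ms4a7 and Ms4a8a. The sources used here do not say how reads of such words were counted, so levels of the Ms4a4 and Ms4a6 genes are uncertain to that extent.

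Promoters of the family, 250 bases before to 50 after the start in RefSeq (GRCm38.p6), were found for 5 members. Those of Ms4a6c and Ms4a6b are shown first, since they share the longest run of bases. Both genes moved in the same direction in every tested comparison inside macrophages described below. Ms4a4c moved with them in each, and its promoter shares runs of 8 bases with either. Whether shared bases bear on the levels was not tested. Capitals mark the longest run that Ms4a6c and Ms4a6b share, 48 bases, where the other 14 pairs of family promoters share runs of at most 10 bases. The run starts 48 bases before the start in Ms4a6c (chr19:11469118-11469417, plus strand) and 117 bases before it in Ms4a6b (chr19:11518309-11518608, plus strand).
Ms4a6c: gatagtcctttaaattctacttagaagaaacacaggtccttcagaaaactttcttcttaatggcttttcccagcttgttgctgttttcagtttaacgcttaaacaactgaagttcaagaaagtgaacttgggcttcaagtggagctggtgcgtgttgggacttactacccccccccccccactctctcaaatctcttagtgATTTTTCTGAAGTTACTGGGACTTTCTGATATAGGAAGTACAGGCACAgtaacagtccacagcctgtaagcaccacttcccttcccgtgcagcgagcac
Ms4a6b: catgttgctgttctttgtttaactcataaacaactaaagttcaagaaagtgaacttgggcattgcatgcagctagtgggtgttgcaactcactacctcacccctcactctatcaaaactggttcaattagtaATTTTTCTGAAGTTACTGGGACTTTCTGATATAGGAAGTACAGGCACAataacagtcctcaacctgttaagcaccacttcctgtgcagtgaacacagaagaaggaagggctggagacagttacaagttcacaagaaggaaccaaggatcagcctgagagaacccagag

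The next promoters belong to the members that differed most between macrophages and monocytes in opposite directions, Ms4a7 (the upstream of its promoters in that table, chr19:11336097-11336396, minus strand) and Ms4a4c (chr19:11407411-11407710, plus strand). Both strands were searched for the letters GAGGAA, the core bound by the myeloid factor PU.1, for GAAA followed by any pair of bases and GAAA again, an interferon response element, and for TTGCNNAA, a C/EBP element. Capitals mark the PU.1 core, found 1 time in each of these promoters, with no overlap of matches. It is found in 28.3% of all 32851 RefSeq promoters, the interferon element in 3.44% and the C/EBP element in 10.8%, and the family promoters held 0 matches of either of these. The promoters of Ms4a4c and Ms4a6b lie inside the GENCODE genes placed above, which begin upstream of these RefSeq starts. Bases around those GENCODE starts were not searched.
Ms4a7: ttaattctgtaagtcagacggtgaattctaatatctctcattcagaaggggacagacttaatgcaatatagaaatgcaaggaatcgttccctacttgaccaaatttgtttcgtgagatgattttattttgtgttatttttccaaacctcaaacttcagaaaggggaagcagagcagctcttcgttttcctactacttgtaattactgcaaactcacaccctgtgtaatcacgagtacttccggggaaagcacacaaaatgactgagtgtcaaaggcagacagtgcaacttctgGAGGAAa
Ms4a4c: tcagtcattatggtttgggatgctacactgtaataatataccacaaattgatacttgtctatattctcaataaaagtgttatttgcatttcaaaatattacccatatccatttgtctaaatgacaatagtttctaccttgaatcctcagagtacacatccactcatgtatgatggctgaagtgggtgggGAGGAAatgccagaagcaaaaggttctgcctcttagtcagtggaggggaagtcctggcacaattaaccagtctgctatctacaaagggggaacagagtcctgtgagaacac

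Across the 6 classes the members fell into different orders, and no class led for all of them. B cells had the highest median for Ms4a1, macrophages for Ms4a7, and monocytes for Ms4a4c, Ms4a6c, Ms4a6d and Ms4a8a. For Ms4a6b, monocytes (380 CPM) and T cells (362 CPM) stood beside each other at the top, and monocytes were the higher of this pair in 4 of 10 tags. Several neighbours in these orders could not be separated beyond their spread: Ms4a6d in monocytes and macrophages (566 and 527 CPM, higher in monocytes in 8 of 10 tags), Ms4a8a in monocytes and B cells (65.0 and 41.3 CPM, higher in monocytes in 7 of 10 tags), Ms4a6c in macrophages and dendritic cells (634 and 619 CPM, higher in macrophages in 9 of 16 tags), Ms4a4c in B and T cells (117 and 112 CPM, higher in B cells in 10 of 18 tags) and Ms4a7 in dendritic cells and neutrophils (75.8 and 67.1 CPM, higher in dendritic cells in 4 of 8 tags). In these sums a class with fewer cells carrying a transcript and one with less of it per cell cannot be told apart. The T and B cells of these orders are all gated cells, inside and outside the macrophage gate. Ms4a8a in B cells was at 80.6 CPM inside that gate (9 tags) and 13.6 CPM outside it (10 tags). For Ms4a4c, B cells held 69.8 CPM inside and 198 CPM outside. T cells held 97.9 CPM of Ms4a4c inside (11 tags) and 120 CPM outside (16 tags).

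**Figure D1:**
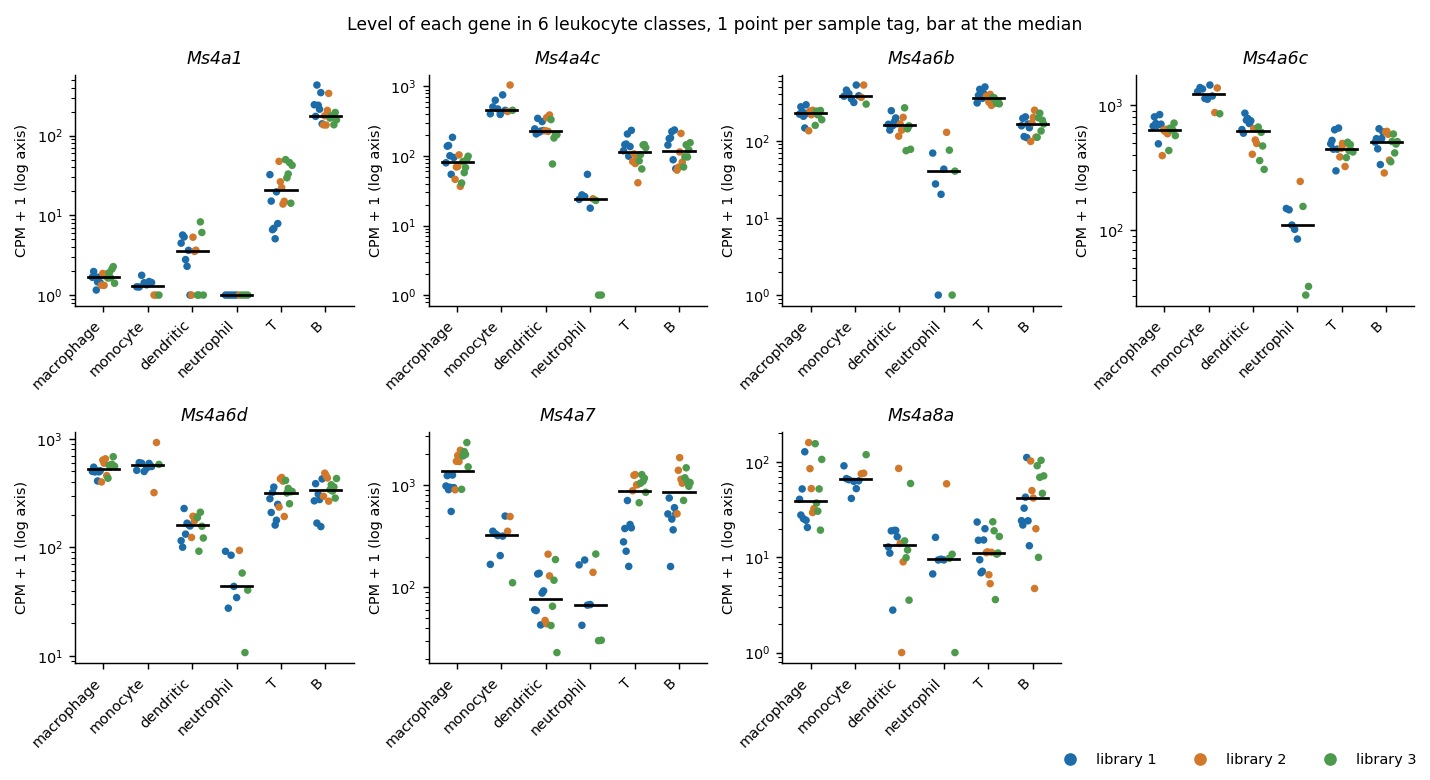
Level of the 7 genes in 6 classes of leukocytes, as CPM + 1 on a log axis, with 1 point per sample tag coloured by library and a bar at the median. Ms4a1 stands highest in B cells (median 176 CPM), Ms4a7 in macrophages (median 1371 CPM) and Ms4a4c and Ms4a6c in monocytes (medians 463 and 1225 CPM).

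Against monocytes, macrophages held more Ms4a7 and less Ms4a4c, Ms4a6c, Ms4a6b and Ms4a8a, which bears on how the genes differ between tissue macrophages and the monocytes they can come from. The monocyte gate was also passed by 11.6% of the macrophages (1744 of 15023), which count as macrophages because that gate came first. Ms4a7 held 549.2 to 2585 CPM in macrophages (median 1371, 18 tags), against 110 to 496 CPM in monocytes (median 326, 10 tags). The groups did not overlap, and the difference was a log2 of 1.65 ± 0.23 (SE; edgeR adjusted p = 8.53e-09), higher in macrophages in 10 of 10 tags. The medians above cover different sets of tags. In the 7 tags of library 1, the Ms4a7 medians were 947 CPM in macrophages and 320 CPM in monocytes. Ms4a4c was lower, with 35.5 to 184 CPM in macrophages (median 80.4), against 394 to 1045 CPM in monocytes (median 463). Here too the groups did not overlap, and the log2 difference was -2.56 ± 0.16 (adjusted p = 2.18e-23). Ms4a6c and Ms4a6b, neighbours in the cluster, followed Ms4a4c with smaller differences. Ms4a6c had a median of 634 CPM in macrophages (392 to 836) and 1225 CPM in monocytes (849 to 1440), a log2 of -0.95 ± 0.11 (adjusted p = 4.46e-11). Ms4a6b had a median of 226 CPM in macrophages (134 to 292) and 380 CPM in monocytes (298 to 527), a log2 of -0.92 ± 0.13 (adjusted p = 4.13e-09). Both were lower in macrophages in 10 of 10 tags, with no overlap of the groups. The share of all genes whose groups did not overlap is not given, here or in later comparisons.

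Ms4a6d, the other Ms4a6 gene, did not pass the test between these classes. Its median was 527 CPM in macrophages (399 to 682) and 566 CPM in monocytes (318 to 921), a log2 of -0.26 ± 0.13 (adjusted p = 0.0797). Ms4a8a was lower in macrophages, with a median of 37.8 CPM (18.3 to 159) against 65.0 CPM in monocytes (40.4 to 118). The groups overlapped, and the log2 of -0.68 ± 0.24 (adjusted p = 0.0118) lost its call without library 1, at -0.37 (adjusted p = 0.657), which holds 7 of the 10 tags. In all, 5 of 7 members were called between macrophages and monocytes, 1 higher and 4 lower, where 56.1% of the 9990 genes tested were called, 27.3% higher and 28.8% lower. Without library 1, 4 members and 19.6% of 9883 genes were called. The members' median log2 was -0.68 and that of all genes -0.01.

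Against dendritic cells, macrophages held more Ms4a7, Ms4a6d, Ms4a8a and Ms4a6b and less Ms4a4c. Ms4a7 was at 1371 CPM in macrophages, against 75.8 CPM in dendritic cells (22.2 to 210, 16 tags), a log2 of 3.85 ± 0.22 (adjusted p = 1.56e-26), higher in macrophages in 16 of 16 tags. Ms4a6d also stood higher in macrophages in 16 of 16 tags, at 527 CPM against 159 CPM in dendritic cells (91.2 to 227), a log2 of 1.80 ± 0.12 (adjusted p = 3.08e-23). Ms4a8a was at 37.8 CPM in macrophages and 12.4 CPM in dendritic cells (0 to 84.6), a log2 of 1.62 ± 0.25 (adjusted p = 3.71e-08). Ms4a4c was lower in macrophages in 16 of 16 tags, at 80.4 CPM against 229 CPM in dendritic cells (75.6 to 387), a log2 of -1.47 ± 0.14 (adjusted p = 5.33e-15). The monocyte gate was also passed by 28.7% of the dendritic cells (393 of 1371), and its part in this level was not tested. Ms4a6b differed little, at 226 CPM in macrophages and 160 CPM in dendritic cells (log2 0.49 ± 0.12, adjusted p = 0.000142). Ms4a6c did not pass (log2 0.14 ± 0.10, adjusted p = 0.209). Of the 7 members, 4 were higher and 2 lower in macrophages, where 64.0% of all genes were called, 31.5% higher and 32.5% lower. Ms4a1 was the other lower member, at 0.675 CPM in macrophages and 2.58 CPM in dendritic cells, where the summed B cell markers were 65.9 and 139 CPM, and its call was lost without library 1 (adjusted p = 0.0555).

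In neutrophils the family was low throughout. Against macrophages, 6 of 7 members were called, all 6 higher in macrophages, where 67.9% of all genes were called, 42.0% higher and 25.9% lower. The median log2 of all genes was already 0.42 in this comparison, and that of the members was 2.30. Ms4a7 stood at 1371 CPM in macrophages and 67.1 CPM in neutrophils (29.3 to 211, 9 tags), a log2 of 3.29 ± 0.32 (adjusted p = 3.33e-15). For Ms4a6d the levels were 527 CPM in macrophages and 42.8 CPM in neutrophils (9.76 to 92.9), a log2 of 3.16 ± 0.21 (adjusted p = 4.03e-23). Ms4a6c, at 634 CPM in macrophages and 109 CPM in neutrophils (29.3 to 244), differed by 2.29 ± 0.16 (adjusted p = 3.10e-21). Ms4a4c had the smallest of these differences, 1.39 ± 0.34 (adjusted p = 0.000219), and was higher in macrophages in 8 of 9 tags. Ms4a1 had 0 molecules in all 9 neutrophil tags. Neutrophils outside the macrophage gate held less Ms4a7, a median of 33.3 CPM over 8 tags.

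To compare shares of cells across depths, every cell was thinned to 1000 molecules. A Ms4a7 molecule was then found in 58.2% of macrophages (57.4 to 59.0, exact Clopper-Pearson 95% interval) and in 15.5% of monocytes (14.04 to 16.95). The shares in dendritic cells (5.18%), neutrophils (6.35%), T cells outside the macrophage gate (7.84%) and B cells outside it (7.24%) were lower than in monocytes, and how much of them is free RNA was not tested. Before thinning they were 89.8% of macrophages, 48.5% of monocytes, 27.6% of dendritic cells and 16.6% of neutrophils, at the depths given above. For Ms4a4c the thinned share was 34.7% of monocytes (32.8 to 36.6), 20.2% of dendritic cells (18.1 to 22.4) and 8.83% of macrophages (8.38 to 9.30), against 1.02% of neutrophils. A Ms4a8a molecule was found in 5.44% of monocytes and 4.10% of macrophages, against 1.31% of dendritic cells and 1.02% of neutrophils. These intervals cover counting error only.

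T and B cells gave levels that differed inside and outside the macrophage gate for some members and hardly for others. Ms4a7 was at 1487 CPM in T cells inside the macrophage gate (11 tags) and 109 CPM in T cells outside it (34.8 to 232, 16 tags). The values were 1425 CPM in B cells inside the gate (9 tags) and 81.0 CPM in those outside (37.8 to 660, 10 tags). Ms4a6d had 468 CPM in T cells inside and 96.9 CPM outside, and 422 CPM in B cells inside and 130 CPM outside. Ms4a6c had 558 CPM in T cells inside and 268 CPM outside. Ms4a6b in T cells did not follow: it was at 350 CPM inside the gate (286 to 396) and 352 CPM outside it (202 to 536). In B cells it was at 169 CPM inside the gate (112 to 283) and 107 CPM outside it (16.9 to 157). After thinning, an Ms4a6b molecule was found in 29.9% of T cells inside and 31.6% of those outside, and in 19.1% of B cells inside and 6.46% of those outside, against 1.84% of neutrophils. Ms4a1 was at 131 CPM in B cells inside the gate and 347 CPM in those outside (212 to 603), and a molecule was found in 73.6% of B cells outside the gate before thinning and in 35.7% after it, against 1.22% of macrophages before and 0.0266% after.

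**Figure D2:**
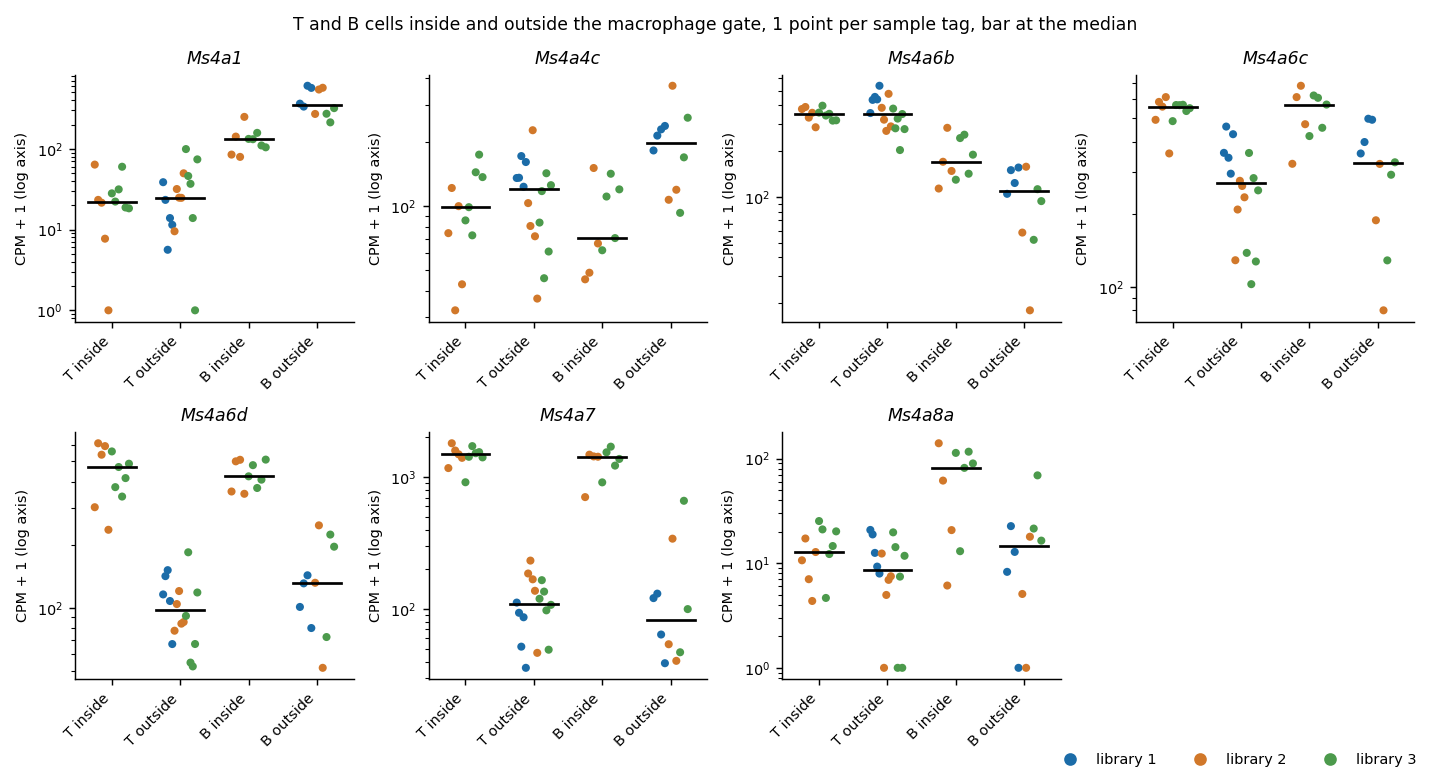
Level of the 7 genes in T and B cells inside and outside the macrophage gate, as CPM + 1 on a log axis, with 1 point per sample tag coloured by library and a bar at the median. Ms4a7 stands at medians of 1487 and 1425 CPM inside the gate and 109 and 81.0 CPM outside it, while Ms4a6b in T cells stays at 350 and 352 CPM.

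Tests against T and B cells were read with that in mind. With all gated cells, 4 of 7 members were higher and 3 lower in macrophages than in T cells, where 65.1% of all genes were called, 31.5% higher and 33.7% lower. Against B cells 4 were higher and 2 lower, where 50.7% were called, 24.9% higher and 25.8% lower. Ms4a1 was lower in macrophages than in B cells by 8.18 ± 0.22 on the log2 scale (adjusted p = 3.81e-43), at 0.675 CPM against 176 CPM (135 to 430), and lower in 18 of 18 tags. Ms4a6b was lower in macrophages than in T cells in 18 of 18 tags, at 226 CPM against 362 CPM (287 to 498), a log2 of -0.69 ± 0.11 (adjusted p = 3.77e-08). Ms4a1 was also lower in macrophages than in T cells (log2 -5.07 ± 0.24, adjusted p = 1.62e-29), but 16.3% of T cells (200 of 1225) passed the B cell gate too, and without cells of more than 1 gate the log2 was -0.41 (adjusted p = 0.904). With T, B and neutrophil cells of the macrophage gate left out, an alternative added after seeing the data, Ms4a7 was higher in macrophages by 3.76 against T cells (adjusted p = 2.41e-21) and by 3.37 against B cells (adjusted p = 1.14e-14), where all gated cells gave 1.03 ± 0.18 and 0.81 ± 0.18. Ms4a6d differed by 2.52 against T cells and 2.07 against B cells in the same fit, and by 0.90 and 0.72 with all gated cells. The log2 of Ms4a6b against T cells was -0.57 (adjusted p = 3.99e-05) in that fit, and Ms4a8a, which did not pass against B cells with all gated cells (log2 0.26 ± 0.21, adjusted p = 0.318), differed by 2.05 (adjusted p = 9.90e-06). Ms4a4c had no stable direction against T cells: its log2 was -0.46 ± 0.14 (adjusted p = 0.00244) with all gated cells, 1.97 (adjusted p = 0.000226) without cells of more than 1 gate, and the call was lost without library 3 (adjusted p = 0.0565).

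Within macrophages, the family was set against 3 features of their state: the acute-phase gene Saa3, 10 interferon-induced genes (Ifit1, Ifit2, Ifit3, Isg15, Rsad2, Irf7, Oasl2, Usp18, Cmpk2 and Ifi44) and 6 genes of MHC class II antigen presentation (H2-Aa, H2-Ab1, H2-Eb1, H2-DMa, H2-DMb1 and Cd74). Macrophages of each tag were ranked by the share of their molecules from these genes, and the upper tertile was compared with the lower. For Saa3 the lower group was the 11133 cells with 0 Saa3 molecules, 74.1% of macrophages, and the upper group 3685 cells with at least 1; another 205 cells with Saa3 fell below the upper tertile of their tag and were in neither group. Ms4a1, which was near 0 in macrophages, was not tested.

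Interferon-high macrophages carried more of every tested member but Ms4a8a. Ms4a4c led, with 205 CPM in the upper group (85.9 to 448, 18 tags), against 16.2 CPM in the lower group (7.35 to 34.8). The groups did not overlap, and the log2 difference was 3.61 ± 0.11 (adjusted p = 5.39e-18), a 12.2-fold difference in 18 of 18 tags. Ms4a6b followed at 333 CPM in the upper group and 155 CPM in the lower (log2 1.16 ± 0.06, adjusted p = 1.72e-13), and Ms4a6c at 879 CPM in the upper and 498 CPM in the lower (log2 0.84 ± 0.04, adjusted p = 1.72e-13). Ms4a6d, at 604 CPM in the upper and 461 CPM in the lower group, differed by 0.44 ± 0.05 (adjusted p = 1.01e-07). All 4 of these were higher in 18 of 18 tags. Ms4a7 was at 1660 CPM in the upper group and 1255 CPM in the lower (log2 0.36 ± 0.06, adjusted p = 5.84e-05, 17 of 18 tags). Ms4a8a was lower, at 31.6 CPM in the upper and 47.3 CPM in the lower group (log2 -0.52 ± 0.14, adjusted p = 0.00603, 14 of 18 tags), a call that was lost without library 2 (adjusted p = 0.0616). With 5 members higher and 1 lower of 6 tested, the background was 34.0% of 10558 genes called, 15.9% higher and 18.1% lower, and 16.4% of genes were called without library 1.

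**Figure D3:**
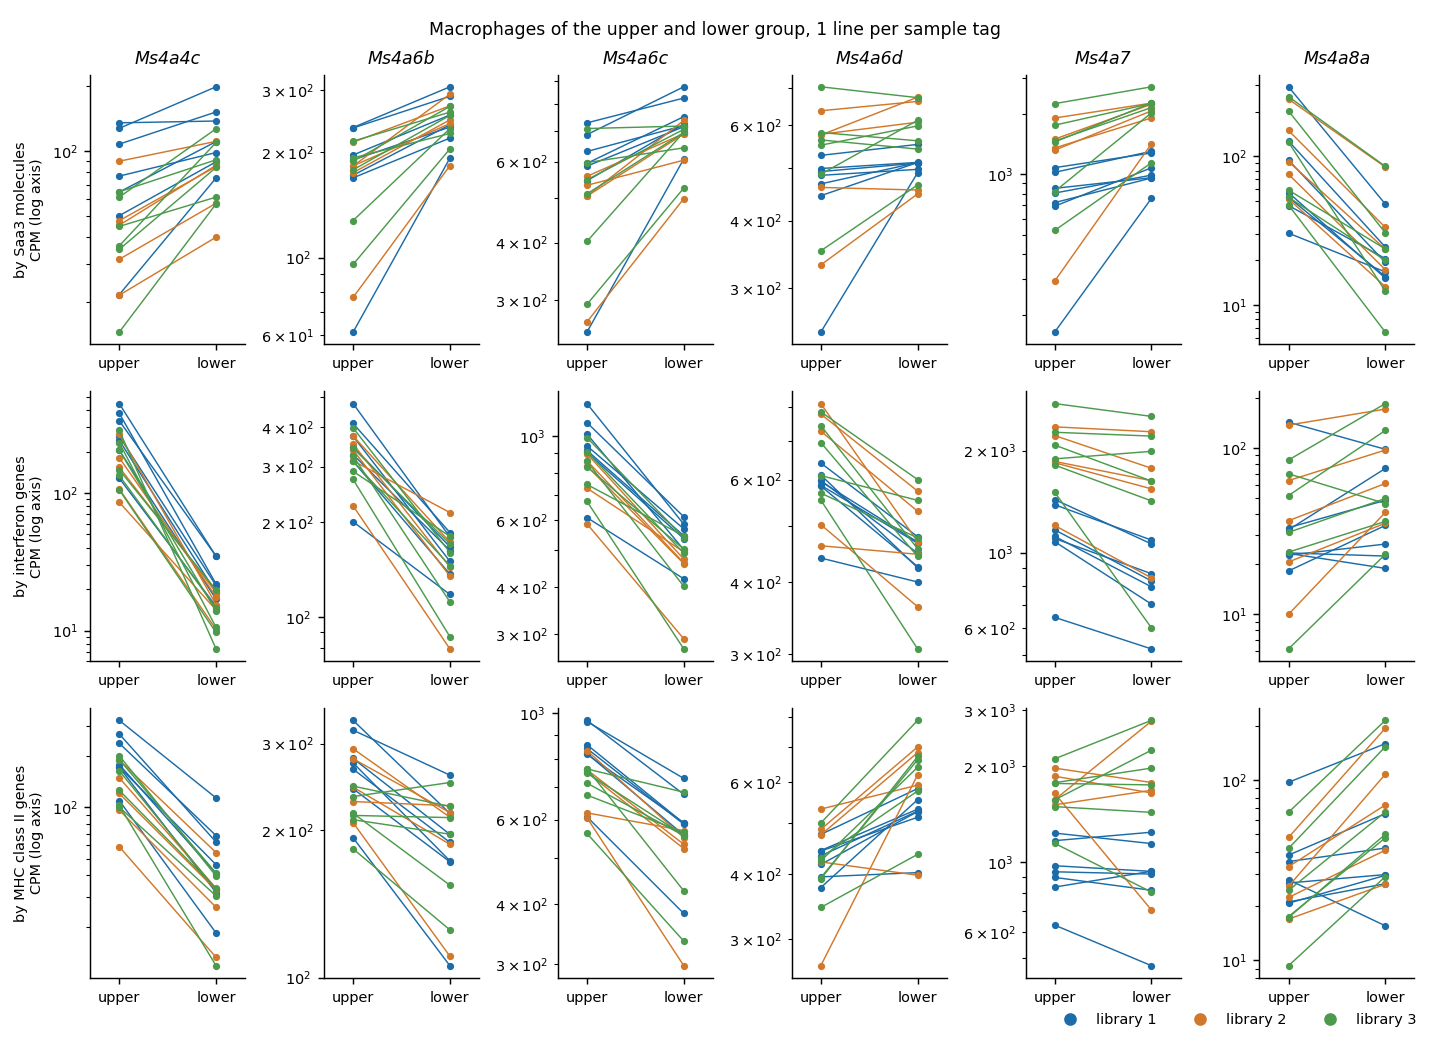
Level of 6 family genes in macrophages of the upper and lower group by Saa3, by interferon genes and by MHC class II genes, as CPM on log axes, with 1 line per sample tag coloured by library. On all 18 lines Ms4a4c is higher in the upper than in the lower interferon group (medians 205 and 16.2 CPM), and Ms4a8a is higher in the upper than in the lower Saa3 group (medians 83.9 and 20.3 CPM).

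The interferon difference of Ms4a4c was also seen outside the monocyte gate and in monocytes. Ly6c2, a monocyte gene, was at 159 CPM in the upper and 22.6 CPM in the lower interferon group of macrophages. In macrophages outside the monocyte gate, Ms4a4c was at 163 CPM in the upper group (78.9 to 315) and 14.3 CPM in the lower (7.18 to 26.5), higher in 18 of 18 tags. Monocytes ranked in the same way gave 7 tags, and Ms4a4c was at 837 CPM in their upper group (568.2 to 1431) and 280 CPM in their lower (211 to 363), with no overlap. Ms4a6b (529 and 259 CPM), Ms4a6c (1449 and 1043 CPM) and Ms4a6d (684 and 462 CPM) were higher in the upper group of monocytes in 7 of 7 tags. Ms4a7 was higher in 6 of 7 (368 and 179 CPM), and Ms4a8a was at 63.7 and 61.1 CPM. These values were added after the first results were seen and carry no test.

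MHC class II separated Ms4a4c and Ms4a6c from Ms4a6d. Ms4a4c was at 167 CPM in the upper group (58.7 to 322) and 33.4 CPM in the lower (11.8 to 113), a log2 of 2.09 ± 0.07 (adjusted p = 2.05e-16), in 18 of 18 tags. Ms4a6c was at 763 CPM in the upper and 557 CPM in the lower group (log2 0.53 ± 0.05, adjusted p = 1.21e-09, 18 of 18 tags), and Ms4a6b at 244 and 196 CPM in the same order (log2 0.43 ± 0.06, adjusted p = 6.56e-07, 17 of 18 tags). Ms4a6d was lower, at 427 CPM in the upper group (267 to 533) and 580 CPM in the lower (398 to 788), a log2 of -0.41 ± 0.06 (adjusted p = 3.45e-06), in 17 of 18 tags. Ms4a8a was lower as well, at 26.3 CPM in the upper and 49.0 CPM in the lower group (log2 -0.94 ± 0.16, adjusted p = 2.71e-05, 17 of 18 tags). In macrophages without Saa3 its values lay the other way, at 22.4 CPM in the upper and 15.5 CPM in the lower group, with the upper one higher in 12 of 18 tags (not tested). Ms4a7 did not pass (log2 0.05 ± 0.09, adjusted p = 0.666). Of 6 tested, 3 were higher and 2 lower, and the background was 57.9% of 10745 genes called, 29.4% higher and 28.5% lower. Other features moved with MHC class II: the upper group had 15958.5 molecules per cell at the median, against 26600 in the lower, 1089 CPM of summed monocyte markers, against 353 CPM, and 142 CPM of resident macrophage markers, against 465.6 CPM. Their part in these differences was not tested.

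Interferon and MHC class II groups were crossed to see each within the other, again as a description. Ms4a4c stood at 342 CPM where both were high, 97.1 CPM with interferon genes alone high, 38.8 CPM with MHC class II alone high and 7.47 CPM where both were low. At a fixed MHC class II group, Ms4a4c was higher with high interferon genes in 18 of 18 tags, and at a fixed interferon group it was higher with high MHC class II in 18 of 18 tags. Ms4a6d held opposite directions in the same cells. It was at 720 CPM with interferon genes alone high, 498 CPM where both were high, 483 CPM where both were low and 378 CPM with MHC class II alone high. At high interferon genes it was lower with high MHC class II in 17 of 18 tags, and at low interferon genes also in 17 of 18. Ms4a8a was highest where both were low, at 63.3 CPM, and at 25.3 to 33.6 CPM in the other 3 groups.

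**Figure D4:**
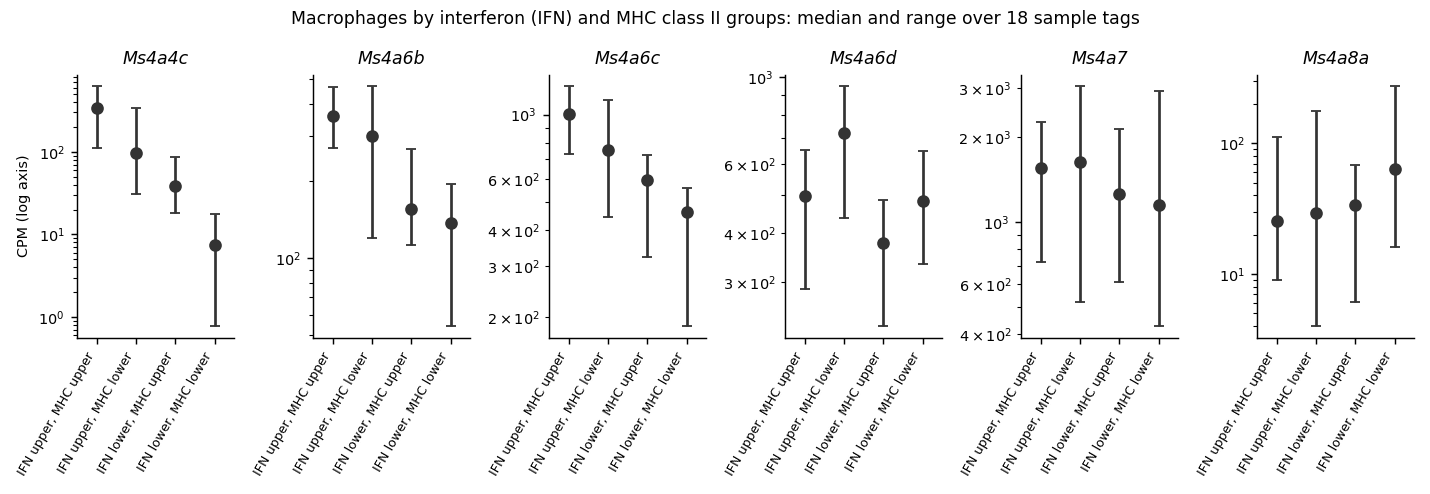
Level of 6 family genes in macrophages by both interferon (IFN) and MHC class II groups, as CPM on log axes, with points at the median and bars from the lowest to the highest of 18 sample tags. Ms4a4c stands at 342, 97.1, 38.8 and 7.47 CPM from left to right, and Ms4a6d is highest, at 720 CPM, in the group with high interferon and low MHC class II genes.

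Saa3 set Ms4a8a apart from the rest of the family. Ms4a8a was at 83.9 CPM in macrophages with Saa3 (30.4 to 293) and 20.3 CPM in those without (6.58 to 85.5), a log2 of 2.01 ± 0.14 (adjusted p = 8.50e-10), higher in 18 of 18 tags. The ranges over tags overlapped. The other members were lower in macrophages with Saa3. Ms4a4c was at 49.0 CPM with Saa3 and 90.2 CPM without (log2 -0.79 ± 0.10, adjusted p = 3.10e-06). Ms4a7 was at 1051 CPM with Saa3 and 1662 CPM without (log2 -0.67 ± 0.12, adjusted p = 0.000248). Ms4a6b was at 182 CPM with Saa3 and 243 CPM without (log2 -0.55 ± 0.07, adjusted p = 5.53e-06), and Ms4a6c at 546 and 700.6 CPM in the same order (log2 -0.41 ± 0.06, adjusted p = 1.61e-05). These 4 were lower in 18 of 18 tags. Ms4a6d had a log2 of -0.14 ± 0.05 (adjusted p = 0.0251, 14 of 18 tags), and its call was lost with any 1 library left out, at adjusted p up to 0.191. Of 6 members tested, 1 was higher and 5 lower, and the background was 30.3% of 11201 genes called, 15.2% higher and 15.0% lower, and 19.5% or 17.8% of genes were called without library 2 or 3.

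Ms4a8a in macrophages with Saa3 also differed with MHC class II. Where MHC class II was low, Ms4a8a was at 89.9 CPM with Saa3 and 15.5 CPM without, higher in 18 of 18 tags. Where MHC class II was high, it was at 34.98 CPM with Saa3 and 22.4 CPM without, higher in 11 of 17 tags. Macrophages with Saa3 were deeper, at 25318 molecules per cell against 19041, and held more resident markers, at 467 CPM against 289 CPM, and fewer MHC class II molecules. Their summed macrophage markers were lower, at a median of 9714 CPM against 14314.5 CPM. Monocyte markers were lower too, at 476 CPM against 673 CPM. With every cell thinned to 1000 molecules, the Saa3 difference of Ms4a8a was a log2 of 2.02 (adjusted p = 3.42e-15). The part of the other markers in it was not tested.

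Ms4a7 and Ms4a8a in macrophages also differed between the tags, that is, between hearts. In library 1, tags 6 to 12 held 973, 1229, 897, 947, 549.2, 1246 and 939 CPM of Ms4a7. Tags 1 to 5 of library 2 held 894, 1698, 1931, 1687 and 2174 CPM, and tags 7 to 12 of library 3 held 904, 1911, 2109, 1980, 2585 and 1497 CPM. Libraries 2 and 3 were thus mostly above library 1, which differs from them in beads, in the counting of intronic reads and in the d3 of its label, and a difference of hearts and one of libraries cannot be told apart. For Ms4a8a the tags of library 1 held 39.6, 26.7, 51.2, 24.4, 127, 23.4 and 19.6 CPM. Those of library 2 held 159, 84.2, 51.6, 28.5 and 31.4 CPM, and those of library 3 held 155, 36.1, 29.5, 51.2, 18.3 and 105 CPM. In each library the tag with the most Ms4a8a had the least Ms4a7: tag 10 in library 1, tag 1 in library 2 and tag 7 in library 3. Macrophages with a Saa3 molecule made up 47.8% in that tag of library 1 (16.2 to 23.2% in the others), 33.5% in that of library 2 (19.8 to 36.7%) and 36.1% in that of library 3 (20.5 to 32.4%). Whether these hearts share a genotype or a time was not analysed here.

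**Figure D5:**
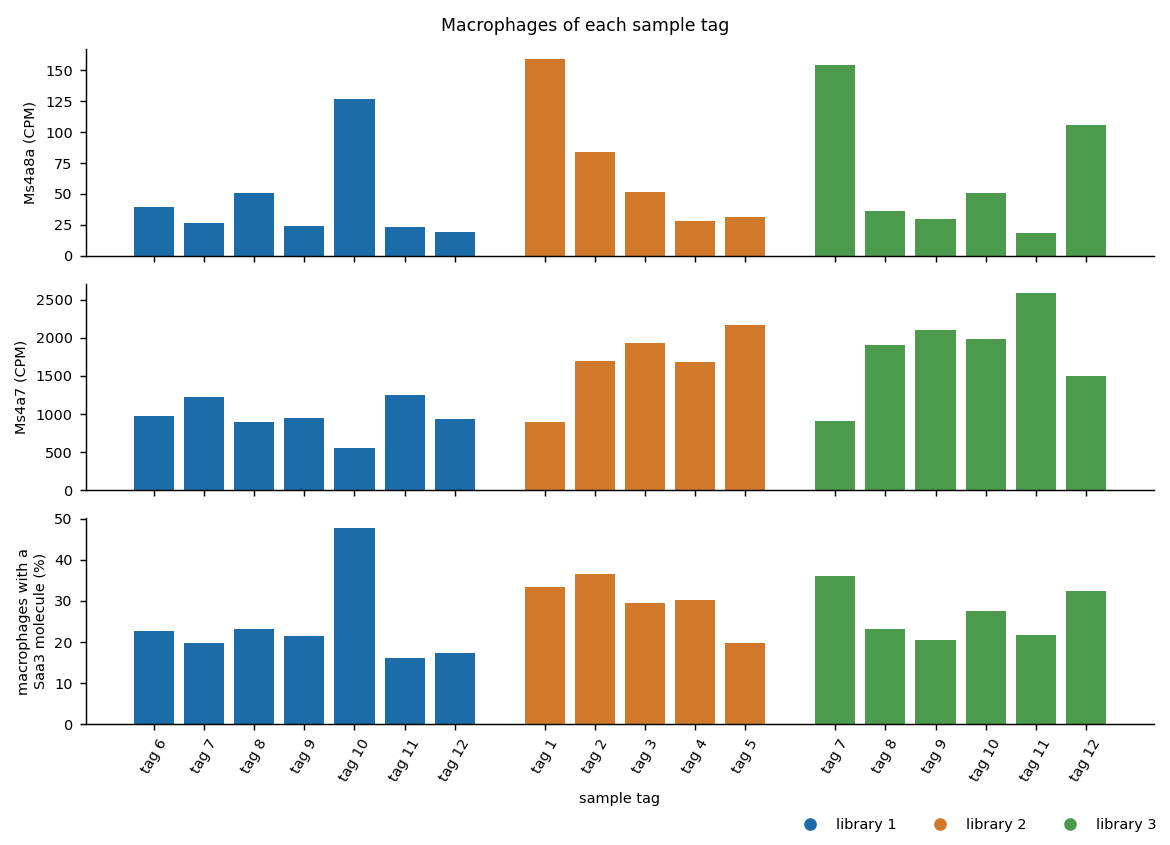
Ms4a8a and Ms4a7 in macrophages of each sample tag as CPM, and the percent of macrophages with a Saa3 molecule, as bars by tag and coloured by library. Tag 10 of library 1, tag 1 of library 2 and tag 7 of library 3 have the highest Ms4a8a bars (127, 159 and 155 CPM) and the lowest Ms4a7 bars of their libraries (549.2, 894 and 904 CPM).

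Genes with the most similar levels were sought for each member over 89 sums of a class in a tag, among 8198 genes with a mean of at least 10 CPM, by Pearson's r of log2(CPM + 10). These sums share tags, libraries and classes, so r is a description. Ms4a1 was like Pou2af1 (r = 0.983) and Fcer2a (0.979), both B cell genes. Ms4a7 was most like Apoe (0.946), Trem2 (0.942) and Selenop (0.936), which macrophages express. Ms4a4c was most like Runx3 (0.878), the monocyte chemokine receptor Ccr2 (0.874) and the interferon-induced Ly6e (0.854). Ms4a6d was most like the Fc receptor gene Fcgr1 (0.912), Cln8 (0.908) and the cathepsin Ctsc (0.901), and Ms4a6c was like Cmpk1 (0.896) and Scpep1 (0.882). Ms4a6b was most like Ppp3cb (0.819), the interferon-induced Mndal (0.807) and Ms4a6c (0.792). Ms4a8a was most like Fn1, the gene of fibronectin (0.836), Car6 (0.787) and the chemokine receptor Ackr3 (0.777). Between members, r was highest for Ms4a4c and Ms4a6c (0.819) and lowest for Ms4a4c and Ms4a7 (-0.09).

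The files hold 11 other Ms4a genes. Ms4a4b, known from T cells, was at 321 CPM in T cells (170 to 642, 18 tags), against 5.03 CPM in macrophages and 26.6 CPM in monocytes, and over all T cells it was at 570.5 CPM outside the macrophage gate and 205 CPM inside it. Ms4a14 was highest in macrophages, at 145 CPM (70.1 to 228), against 41.6 CPM in monocytes. Ms4a4a was highest in monocytes, at 83.4 CPM, with 17.0 CPM in macrophages. Ms4a3, a gene of granulocyte precursors, had 106 molecules in the 488 neutrophils, against 5 in macrophages and at most 1 in each other class, and it was at 0 in the 9 tags with at least 20 neutrophils. Ms4a2, which encodes a chain of the IgE receptor of mast cells and basophils, had 163 molecules in the cells of no gate and 59 in macrophages. In macrophages without Saa3 it was at 0 in 9 of 18 tags and highest, at 7.24 CPM, in a tag of library 3. Summed markers of mast cells and basophils had a median of 2.84 CPM in macrophages and reached 136 CPM in the highest tag. Ms4a4d was at 17.1 CPM in cells of no gate and at most 1.23 CPM at the median of any class. Ms4a5, Ms4a12, Ms4a13, Ms4a15 and Ms4a18 had medians under 0.1 CPM in every class. Among the 3 of these genes that could be tested between macrophage groups, Ms4a4a (log2 0.88 ± 0.09, adjusted p = 2.37e-08), Ms4a4b (log2 1.499 ± 0.15, adjusted p = 3.86e-08) and Ms4a14 (log2 0.49 ± 0.06, adjusted p = 2.35e-06) were all higher in the upper interferon group and all lower with Saa3.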

How the data were processed

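The deposited molecule counts per cell were made with the BD Rhapsody WTA Analysis Pipeline, version 2.0b1 for library 1 and 1.10 for libraries 2 and 3, with genome GRCm38 and annotation GENCODE M19 (file headers; submitters' processing notes). Library 1 used enhanced beads and kept intronic reads, and libraries 2 and 3 used original beads, per the file headers, so levels between libraries were not tested. Counts were summed per sample tag and class (at least 20 cells) and tested in edgeR 4.0.16 (R 4.3.3) with TMM scaling, filterByExpr, tag as a block and Benjamini-Hochberg adjustment over all genes. The tag is the same heart, so it pairs the classes. SE is the log2 difference divided by the square root of F. The script was tested on simulated data. Alternatives were RLE size factors, DESeq2 1.42.0, no filter, 500 genes per cell, cells thinned to 1000 molecules, Scrublet's top 2% left out (512 cells), multi-gate cells left out, stricter gates, other splits, no block and each library left out. Doublets were otherwise kept. The 7 members, the other Ms4a genes and partners, the gates and the lists were chosen with earlier results of these data known, and the 3 most correlated genes were named for each member, except that 1 gene each for Ms4a1 and Ms4a6c is not reported here. Intervals cover counting error only. Ms4a6e, Ms4a10, Ms4a19 and Ms4a20 were not analysed here.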

Additional observations from a re-analysis of the deposited data

Results flagged for a closer look

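Among 21 groups of macrophage levels (7 genes in each of 3 libraries), 4 held a tag far from the rest, where chance gives about 1 in 20. In library 2, tag 1 was lowest for Ms4a6b, at 134 CPM against 217 to 248 CPM in the other tags, and lowest for Ms4a6c, at 392 CPM against 587 to 638 CPM. In library 1, tag 10 was lowest for Ms4a6d, at 407 CPM against 494 to 546 CPM in the other tags. The same tag was highest for Ms4a8a, at 127 CPM against 19.6 to 51.2 CPM. Both tags also held the most Ms4a8a and the least Ms4a7 of their library.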

How the results depend on the processing

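The number of members called stayed within 1.5 times under every alternative run in all 8 comparisons. Of 701 values of 53 results under alternatives, 668 stayed called or stayed not called, 22 lost the call, 7 gained it and 4 changed direction. Direction was compared only where the main fit or the alternative gave a call. With cells thinned to 1000 molecules, the log2 of Ms4a1 between macrophages and monocytes was -1.39 (adjusted p = 0.0431), that of Ms4a4c between macrophages and T cells 0.14 (adjusted p = 0.458), and that of Ms4a7 between MHC class II groups -0.16 (adjusted p = 0.0338). Without cells of more than 1 gate, Ms4a4c between macrophages and T cells was at 1.97 (adjusted p = 0.000226). The cause was not tested. Without the replicate block, which here is the tag, 4 members were called between macrophages and monocytes, against 5 with it, and 4 in each of the Saa3 and interferon splits, against 6 with it. The calls lost there were those of Ms4a8a against monocytes (adjusted p = 0.578), Ms4a4c against T cells (0.0537), Ms4a6d (0.47) and Ms4a7 (0.122) by Saa3, and Ms4a7 (0.454) and Ms4a8a (0.422) by interferon genes. Over all genes, calls without the block numbered 1250 by Saa3, against 3391 with it, and 983 by interferon genes, against 3591. Leaving out a library gave 1941 calls against monocytes without library 1, against 5605 with all, 2219 and 2045 by Saa3 without library 2 or 3, and 1646 by interferon genes without library 1. Thinning lowered the number of calls in all 8 comparisons, with fewer genes tested (2403 between classes, against 9990), and the share called fell to 15.0% by Saa3, 17.3% by interferon genes and 43.6% by MHC class II, against 30.3%, 34.0% and 57.9%. It also fell against monocytes (50.8%, from 56.1%) and dendritic cells (62.7%, from 64.0%). The share rose against neutrophils (73.3%, from 67.9%), T cells (71.1%, from 65.1%) and B cells (63.0%, from 50.7%). RLE size factors moved the median log2 of all genes against monocytes to 0.15, with 3772 genes higher and 1962 lower, against 2731 and 2874 with TMM, and that against neutrophils to 0.57. Depth limits Ms4a1 outside B cells and Ms4a8a in neutrophils, whose tags hold few molecules.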

Other observations

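Other genes named beside the family were read in the same macrophage groups. Tmem176a and Tmem176b, which encode relatives of the Ms4a proteins, were higher in the upper than in the lower MHC class II group in 18 of 18 tags, at 273 and 40.8 CPM for Tmem176a (log2 2.61 ± 0.05, edgeR adjusted p = 7.29e-21) and at 547 and 96.7 CPM for Tmem176b (log2 2.38 ± 0.06, adjusted p = 2.76e-19). These genes overlap each other on opposite strands of chromosome 6, so their counts are uncertain to that extent. Vsig4, a complement receptor gene of resident macrophages, was lower in the upper MHC class II group, at 1.26 CPM against 31.7 CPM in the lower (log2 -3.12 ± 0.40, adjusted p = 5.63e-07). It was higher in macrophages with Saa3, at 52.1 CPM against 7.87 CPM in those without (log2 1.86 ± 0.40, adjusted p = 0.00109). Trem2, a lipid receptor gene, was lower in the upper MHC class II group, at 572 CPM against 772 CPM in the lower (log2 -0.55 ± 0.07, adjusted p = 1.46e-07). Tyrobp, which encodes the signalling partner of TREM2, passed in none of the 3 splits, with adjusted p of 0.788 by Saa3, 0.454 by interferon genes and 0.787 by MHC class II. Fcer1g, the gene of the Fc receptor gamma chain, was lower with Saa3 (log2 -0.16 ± 0.02, adjusted p = 5.31e-06) and higher in the upper interferon group (log2 0.20 ± 0.03, adjusted p = 1.03e-06).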
